A study of Lates calcarifer with 24 samples.

Results

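The liver transcriptome of juvenile Asian seabass (*Lates calcarifer*) fed any of 5 pelleted feeds was compared with that of siblings fed frozen baitfish. The 20 arrays labelled Groups B to F (pellets) and the 4 arrays labelled Group A (baitfish) were taken by their labels, and they make up all 24 arrays of the series. By the labels, 4 fish were sampled per group, and each array is taken here as 1 of them. The methods name more fish per feed for RNA extraction, and no source used here says whether samples were pooled. The fish came from a single cross of parents selected for growth, were fed for 61 days, and were sampled at 168 days post-hatch. Before the trial all of them had been weaned to dry commercial feed, so Group A was the group whose kind of feed was changed. Below, rose and fell mean higher and lower with pellets than with baitfish, not a change over time. Group A received wild-caught scad at 6.1% of body weight per day, Groups B, C, D and E received commercial pellets at 2.2%, and Group F received pellets at 1.8%. These are shares of wet weight. The ration of Group A was raised to keep the energy intake the same, since baitfish holds far less dry matter than pellets, while Group F took in less energy than the others. The effects of baitfish itself and of its wet ration cannot be told apart. Groups E and F were left out of the study's own comparisons, because Feed E came in a single pellet size and Feed F was eaten less. Each feed was given in canvases of 5 tanks, but the labels do not give the tank of a fish, so the spread below is that between the samples of a group. Whether the letters C to F of the labels follow the same feeds as in the study's text was not settled, and rations are given here by letter. The mean of the 5 pellet groups does not change if these letters are exchanged.

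The fish liver makes fatty acids and cholesterol, secretes most plasma proteins and acute-phase proteins, and holds resident immune cells. When the diet brings little long-chain polyunsaturated fatty acid, vertebrate liver generally raises transcripts of the desaturases and elongases that build it from shorter precursors. Marine prey is rich in such fatty acids and in cholesterol, while pellets often replace part of the fish meal and fish oil with plant material. The study measured Feeds A to D. As a share of fatty acids, docosahexaenoic acid was lower in Feeds B, C and D than in baitfish, but eicosapentaenoic acid was higher in Feeds B and D. The pellets also held more fat by wet weight. Whether fatty acid supply underlies any difference below was not tested.

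Liver RNA was hybridised to one-colour Agilent arrays that hold 60080 probes besides controls. Values below are log2 of the background-subtracted signal after quantile normalization over 24 arrays, and a difference of 1 is a 2-fold change. Spots well above background made up 21.6% to 29.8% of an array in Group A (median 23.4%) and 20.4% to 36.0% in the pellet groups (median 27.6%). The arrays lay on 3 slides with every group on each slide, and slide 1, which held 2 arrays each of Groups A and B, was dimmer (75th percentile of the signal 22.2 to 32.9, against 42.4 to 80.2 on the others). The slide was therefore a term of the fit. Slides 2 and 3 held 1 Group A array each, so a difference given within either of them rests on 1 baitfish-fed fish. The hepatocyte markers *serpina1*, *aldh1l1* and *lbp* were well above background on all 24 arrays. Only 15 probes could be paired with a gene symbol, and the remaining probes are known by design number.

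The mean of the 5 pellet groups differed from Group A in 912 differentially expressed transcripts (DETs), which have an adjusted p below 0.05 in limma and at least a 2-fold change. They made up 1.52% of the probes tested. Of these, 649 rose with pellets (1.08% of probes) and 263 fell (0.438%). Without the fold limit, 1333 probes passed (2.22%). The median DET that rose was 2.82-fold higher, and the median DET that fell was 2.76-fold lower. Only 290 DETs (203 that rose and 87 that fell) were well above background on all 24 arrays, and their medians were 2.45-fold higher and 2.66-fold lower. A total of 216 of the DETs that rose were dim on all 4 Group A arrays, where a level is only a bound. With these at their bound the median rise was 1.2 on the log2 scale in place of 1.49. Other sources of the signal gave fewer DETs and a more even split: normexp, a model-based background correction of the spot medians, gave 296 (57.1% of them rose, against 71.2%), and the deposited processed table gave 322 (55.9% rose). The count was 424 without Group A replicate 3, 277 without Group D, 548 without Group B, 249 without slide 2 and 100 without slide 3.

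The 4 named genes of fatty acid and sterol synthesis all rose, and all 4 passed the test at an adjusted p below 0.05 (2.22% of all probes did). Of these, 3 were DETs (1.08% of all probes were DETs that rose). Further genes of these pathways that the study reports, such as *elovl6* and *scd*, could not be paired with a probe here. The study had chosen 13 of the 15 named genes on arrays of this series and added *fads2* and *elovl5* for their known response to dietary fatty acids, so the counts are no independent evidence of direction. With normexp or the deposited processed table as the source of the signal, all 4 still passed at an adjusted p below 0.05, with smaller differences (given below, and 0.55 for *elovl1b* with either).

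*fads2* encodes the fatty acyl desaturase that introduces double bonds into polyunsaturated fatty acids, an early step toward their long-chain forms. Its log2 signal was 7.86, 3.33, 5.50 and 7.74 in the 4 Group A fish, and the pellet arrays ran from 8.40 through a median of 9.24 to 11.5. Every pellet-fed fish therefore lay above every baitfish-fed fish, by at least 0.55. The fitted difference was 3.36 ± 0.64 (SE), or 10.3-fold, with adjusted p = 0.0105 (limma). The means of Groups B to F were, in that order, 8.81 ± 0.36 (SD, n = 4), 9.37 ± 0.78, 10.48 ± 1.09, 9.70 ± 1.04 and 9.49 ± 0.75. The spread was widest in Group A (SD 2.14), where 2 of the 4 arrays were not well above background. The SE and adjusted p rest on the spread shared by all groups, which does not measure this wider one. Within slides 1, 2 and 3 the difference was 3.71, 4.28 and 1.78. Without Group A replicate 3 it was 3.03, with adjusted p = 0.0768. It was 2.17 with normexp and 2.24 with the deposited table.

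*elovl5* encodes an elongase that lengthens the products of the desaturase. Its signal was 6.57, 5.25, 3.70 and 5.63 in Group A and 5.36 to 8.22 with pellets (median 7.32). A total of 17 of the 20 pellet arrays lay above the highest Group A array, and the ranges overlapped. In Group A, 2 of the 4 arrays were well above background. The difference was 2.11 ± 0.33, or 4.31-fold (adjusted p = 0.00321). It was 0.98 with normexp, below the 2-fold limit, and 1.06 with the deposited table. For Groups B to F taken singly it was, in that order, 2.28, 2.62, 2.32, 1.98 and 1.34. Groups E and F thus had the lowest fitted values, but their mean did not differ from that of B, C and D by the test (−0.74 ± 0.28, adjusted p = 0.751).

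*tm7sf2* encodes a sterol reductase of cholesterol synthesis. It was not well above background on any Group A array (3.30, 5.11, 3.15 and 5.03), while it was on 15 of the 20 pellet arrays, which ran from 5.17 through a median of 6.98 to 8.72. All 20 lay above Group A, although the nearest arrays were only 0.06 apart. With the background-subtracted signal, the bound was 2.79-fold higher with pellets, and it does not hold for the other sources of the signal below. For this bound each Group A array that lay below the weakest signal well above background on it was raised to that level. A dim value above that level entered as measured, so the bound is approximate. The pellet arrays entered as they stood, dim ones included, with no slide term. The adjusted p of 0.00468 (limma) belongs to the fitted difference of 2.63, which used the dim values. The 5 pellet arrays that were dim all lay on the dimmer slide 1, where only the Group D array was detected. Within slides 1, 2 and 3 the plain difference of means, with no fit, was 2.08, 4.21 and 2.10. The fitted difference was 0.92 with normexp, below the 2-fold limit, and 1.01 with the deposited table.

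*elovl1b* encodes an elongase of saturated and monounsaturated very-long-chain fatty acids in mammals. It was 8.63, 8.21, 8.59 and 8.40 in Group A and 8.45 to 9.82 with pellets (median 9.09), with 15 pellet arrays above all of Group A. Its rise of 0.65 ± 0.15 (1.57-fold, adjusted p = 0.0277) stayed below the 2-fold limit. Group D stood highest, at 9.71 ± 0.07, against 8.71 ± 0.29 in E and 8.78 ± 0.36 in F. The rise lost its call without Group D (0.49, adjusted p = 0.216), without Group C (adjusted p = 0.0641), and without Group A replicate 2, 3 or 4 (adjusted p = 0.0858, 0.0505 and 0.0938).

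**Figure D1:**
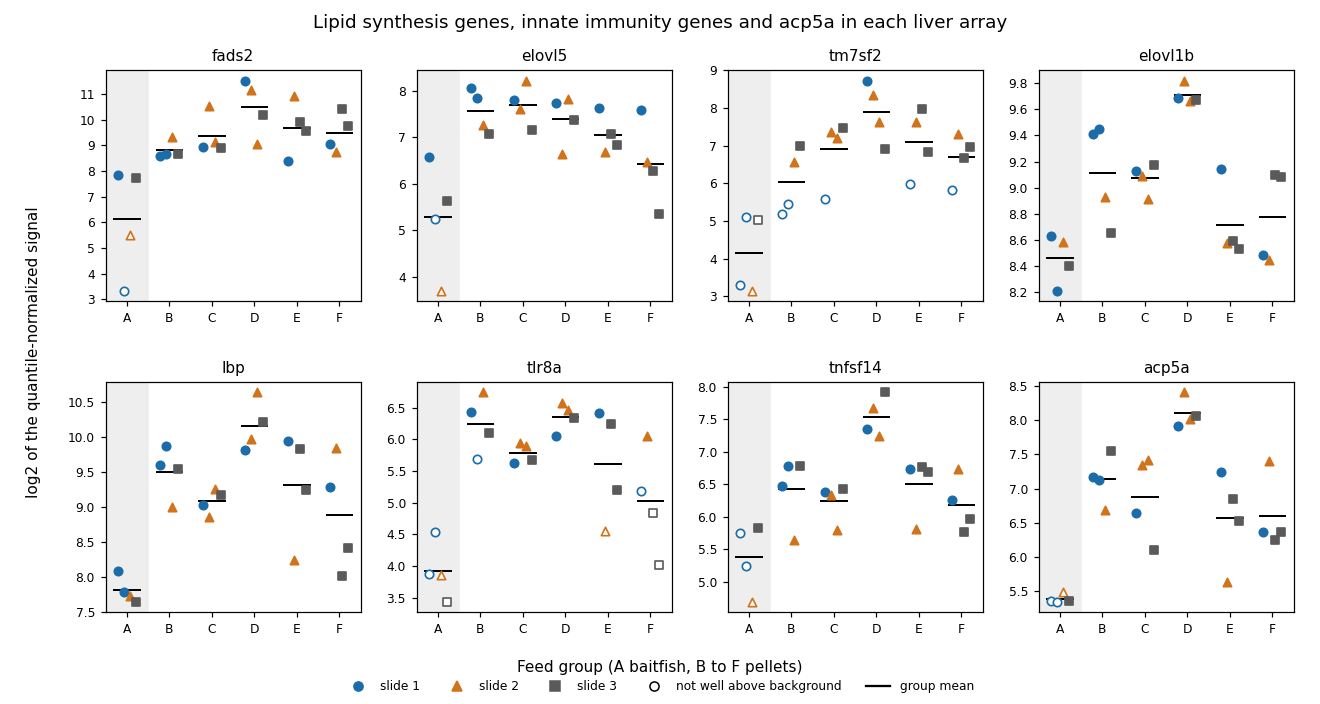
Each point is 1 liver array (y axis, log2 of the quantile-normalized signal) in the 6 feed groups (x axis, Group A shaded); shape and colour give the slide, open points are not well above background, and bars are group means (n = 4). For *fads2*, *tm7sf2* and *acp5a* all 20 pellet arrays sit above the 4 Group A arrays, while *elovl1b*, *lbp*, *tlr8a*, *tnfsf14* and *elovl5* overlap with them.

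All 3 genes of innate immunity were DETs that rose (1.08% of all probes were), and the study had picked them on arrays of this series. *lbp* alone stayed a DET with normexp and with the deposited table. On the log2 scale the differences with normexp and with the table were 1.399 and 1.397 for *lbp*, 0.57 and 0.595 for *tlr8a*, and 0.575 and 0.574 for *tnfsf14*, with every adjusted p below 0.05. *lbp* encodes the lipopolysaccharide-binding protein that liver secretes as an acute-phase protein. Its signal was 8.08, 7.79, 7.73 and 7.65 in Group A and 8.01 to 10.64 with pellets (median 9.41), and 19 pellet arrays exceeded Group A. The difference was 1.63 ± 0.29, or 3.10-fold (adjusted p = 0.00623). It was 1.62, 1.56 and 1.69 within slides 1, 2 and 3, with 1 Group A array on each of slides 2 and 3. Group D had the highest mean (10.16 ± 0.36), followed by B (9.50 ± 0.36), E (9.31 ± 0.77), C (9.08 ± 0.18) and F (8.89 ± 0.83). The 4 Group A fish were closely spaced (SD 0.19), and the fish of Groups E and F were not.

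*tlr8a* encodes a toll-like receptor that in mammals senses single-stranded RNA in endosomes. It was dim on all 4 Group A arrays (3.87, 4.54, 3.86 and 3.43) and well above background on 15 of the 20 pellet arrays, which ran from 4.01 through a median of 6.00 to 6.74. Its DET call came from the fitted difference of 1.90 (adjusted p = 0.00435, limma), which used the dim values. The signal was at least 1.35-fold higher with pellets, an approximate bound under the 2-fold limit, and 19 pellet arrays exceeded Group A. It was detected in all 4 fish of Groups C and D, in 3 of 4 in Groups B and E, and in 1 of 4 in Group F.

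*tnfsf14* encodes a cytokine of the tumour necrosis factor family. It was 5.75, 5.24, 4.69 and 5.83 in Group A, with 1 array well above background, and 5.65 to 7.91 with pellets (median 6.58), where all 20 were. A total of 16 pellet arrays exceeded Group A. The difference, which used the dim Group A values, was 1.24 ± 0.22, or 2.36-fold (adjusted p = 0.00615). As given above, it was below the 2-fold limit with normexp and with the deposited table. Group D lay highest, at 7.54 ± 0.31, against 6.18 ± 0.42 to 6.50 ± 0.47 in the other pellet groups. Without Group D the difference was 0.995 with adjusted p = 0.0645, and without Group A replicate 3 it was 1.08 with adjusted p = 0.0531.

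*acp5a* encodes a tartrate-resistant acid phosphatase, which in mammals marks osteoclasts and activated macrophages. Group A held the narrowest values of the named genes (5.36, 5.34, 5.48 and 5.36, with 1 array well above background). The pellet arrays ran from 5.64 through a median of 7.15 to 8.41, all of them well above background and above Group A. The rise was 1.67 ± 0.26, or 3.19-fold (adjusted p = 0.00364), and within slides 1, 2 and 3 it was 1.72, 1.59 and 1.59. It was 0.78 with normexp and 0.84 with the deposited table, both below the 2-fold limit. Group D was highest, at 8.10 ± 0.21, and Group E lowest, at 6.56 ± 0.68.

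The 3 genes taken as markers of macrophages and other immune cells (*tlr8a*, *acp5a* and *tnfsf14*) thus all rose, and the study had picked them on arrays of this series. None was detected on every array (15, 21 and 21 of 24). On the 4 Group A arrays, *tlr8a* was detected on 0, and *acp5a* and *tnfsf14* on 1 each. The summed signal of the 3 genes in Group A, 85.0 to 109.3, therefore rests mostly on dim readings. It was 129.0 to 638.3 with pellets, 471.6 to 638.3 in Group D, 129.0 to 343.3 in E and 159.1 to 343.0 in F. The summed signal of the 3 hepatocyte markers was 227946 to 389469 in Group A and 123520 to 369717 with pellets. Group D, at 130332 to 179266, lay wholly below Group A. *serpina1* made up 93.1% to 97.6% of this sum, and *lbp* of the same list rose. In a whole liver sample, more cells of a type and more RNA per cell cannot be told apart, and the part of immune cells in any result was not tested.

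A further pair of enzymes rose by less than 2-fold. *gnpda1*, a deaminase of glucosamine 6-phosphate, was 7.11, 7.68, 6.92 and 7.58 in Group A and 7.60 to 8.84 with pellets (median 8.13). Its difference was 0.81 ± 0.15, or 1.75-fold (adjusted p = 0.00734), with 18 pellet arrays above Group A. *pip4k2aa*, a phosphoinositide kinase, was 6.60, 6.49, 6.23 and 6.25 in Group A and 6.14 to 7.74 with pellets (median 6.92). Its difference was 0.61 ± 0.14, or 1.53-fold (adjusted p = 0.0279), with 18 pellet arrays above Group A and 1 below it. Without Group A replicate 3, the adjusted p was 0.0689 for *gnpda1* and 0.186 for *pip4k2aa*. Without Group D it was 0.0512 for *gnpda1* and 0.175 for *pip4k2aa*. The call of *pip4k2aa* was also lost without Group E (0.0531), without Group A replicate 2 (0.053), without Group A replicate 4 (0.0722), without the slide term (0.0651), with normexp (0.27, adjusted p = 0.118) and with the deposited table (0.35, adjusted p = 0.0647).

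Of the enzymes of folate-dependent one-carbon metabolism, 1 of 2 passed the test at an adjusted p below 0.05 (2.22% of all probes did). *shmt2*, the mitochondrial serine hydroxymethyltransferase, was 8.10, 7.71, 8.93 and 9.60 in Group A and 8.67 to 10.72 with pellets (median 9.32). Only 4 pellet arrays exceeded Group A. The difference was 0.65 ± 0.16 (1.57-fold, adjusted p = 0.0417). Within slides 1, 2 and 3 it was 1.06, 0.50 and 0.20. In the fit of each pellet group it was 1.22 in Group B, 0.97 in C and 0.30 to 0.38 in D, E and F. The call was lost without Group B, C or D (adjusted p = 0.172, 0.134 and 0.0646), without the slide term (0.207), with the deposited table (0.0514), and in 15 of the 24 fits that left out 1 array, with adjusted p between 0.0504 and 0.129, the last without Group A replicate 2.

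*aldh1l1*, the cytosolic formyltetrahydrofolate dehydrogenase, did not pass (−0.57 ± 0.18, adjusted p = 0.124). It was 13.04, 13.38, 13.59 and 13.69 in Group A and 11.1 to 14.1 with pellets (median 13.10). It was the named gene whose pellet groups differed by the F-test (adjusted p = 0.0169). The difference from Group A was −1.73 ± 0.23 in Group D, 0.20 ± 0.23 in C, and between −0.61 and −0.24 in Groups B, E and F.

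Of the secretory genes, 1 of 3 passed (2.22% of all probes did). *serpina1*, the protease inhibitor that liver secretes in large amounts, was 17.74, 18.19, 18.39 and 18.52 in Group A and 16.8 to 18.5 with pellets (median 17.75). It fell by 0.60 on the log2 scale (SE 0.13, 1.51-fold lower, adjusted p = 0.0218), with 10 pellet arrays below all of Group A. The difference was −0.57, −0.59 and −0.57 within the 3 slides. It was −1.15 in Group D and −0.79 in B, against −0.21 in E and −0.33 in F. The call was lost without Group B (adjusted p = 0.0561) or D (0.119), without Group A replicate 2, 3 or 4 (0.0676, 0.0978 and 0.0703), without the slide term (0.274), and with a replicate block in place of the slide (0.0858). *p4hb*, a protein disulfide isomerase of the endoplasmic reticulum, was −0.47 ± 0.15 (adjusted p = 0.116), and *ssr1*, a subunit of the translocon-associated complex, was −0.30 ± 0.14 (adjusted p = 0.359). Within slide 3, which held 1 Group A array, both had the opposite sign (0.19 and 0.19). Without Group A replicate 4, *p4hb* passed the test (−0.72, adjusted p = 0.015).

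Over the 15 named genes, 7 were DETs that rose and 0 were DETs that fell in limma, against 1.08% and 0.438% of all probes, and nothing is read from this since most were picked on these samples. Of the 7, 2 (*fads2* and *lbp*) were DETs with normexp and 4 (these, *elovl5* and *tm7sf2*) with the deposited table. Without the fold limit 11 rose and 1 fell (2.22% of all probes passed), and the median difference was 0.81, against 0.01 over all probes. With scaling to the 75th percentile in place of quantile normalization, the median over all probes was −0.18 or −0.19, and *elovl1b*, *shmt2*, *pip4k2aa* and *serpina1* kept their directions but lost their calls (adjusted p between 0.0652 and 0.122).

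**Figure D2:**
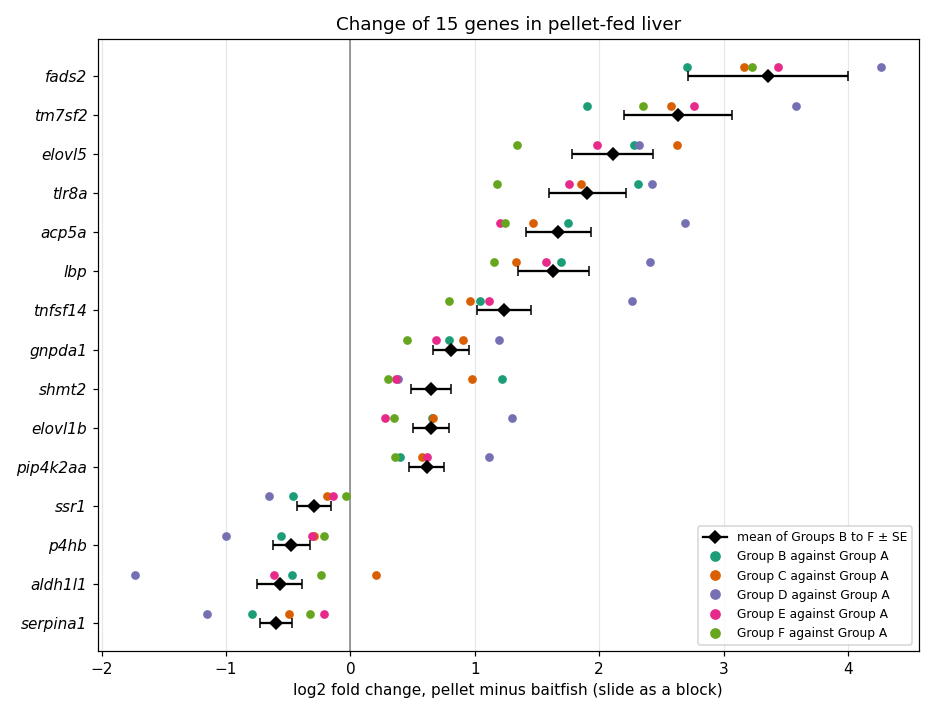
Fitted log2 difference from Group A (x axis) for the 15 named genes (y axis), as the mean of the 5 pellet groups with its SE (black) and for each pellet group alone (coloured); the 5 groups share the 4 Group A arrays. The values run from 3.36 for *fads2* to −0.60 for *serpina1*, and Group D is the farthest from 0 for all genes except *elovl5* and *shmt2*.

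A stricter description asks for every pellet array to lie beyond every Group A array. This held for 162 probes (0.27% of those with no missing value), of which 122 were higher and 40 lower with pellets. The gap between the nearest arrays was small for most of them, with a median of 0.18 for those that were higher and 0.12 for those that were lower. Among them, 120 were DETs. Removing slide means first gave 292 such probes. Leaving out Group A replicate 1, 2, 3 or 4 gave 328, 411, 279 or 348, but leaving out an array can only keep or raise this count. It was 248 without Group E replicate 2. Only 4 probes had a gap of at least 1. These were CUST_12880_PI428621111, CUST_11494_PI428621111 and CUST_13037_PI428621111, described below, and CUST_57644_PI428621111 (gap 1.35), which was dim on all 4 Group A arrays and well above background on all 20 pellet arrays. They are named after their values were seen, because they are few.

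Of the DETs that were well above background on all 24 arrays, 50 also separated the sides completely (37 higher and 13 lower). The probe that rose most among these was CUST_12880_PI428621111. It was 8.06, 8.10, 8.41 and 8.73 in Group A, and 10.9 through a median of 12.8 to 13.9 with pellets, a gap of 2.12. The difference was 4.15 ± 0.30, or 17.8-fold (adjusted p = 3.08e-06). The group means fell into a lower pair, 11.33 ± 0.57 in B and 11.52 ± 0.81 in E, and 3 higher groups, 13.38 ± 0.34 in C, 13.20 ± 0.59 in D and 13.20 ± 0.49 in F. These differences among pellet groups did not pass the F-test (adjusted p = 0.0789).

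Among the same DETs, the probe that rose second most was CUST_43804_PI428621111. It was 11.09, 9.81, 9.83 and 10.89 in Group A and 11.7 to 13.8 with pellets (median 12.77), and it rose by 2.31 ± 0.28, or 4.95-fold (adjusted p = 0.000865). All pellet groups had means between 12.20 ± 0.39 (B) and 13.14 ± 0.48 (F). The gene of either probe is not known from the sources used here.

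The probe that fell most was CUST_5452_PI428621111, at 9.998, 9.92, 10.96 and 10.08 in Group A and 6.35 to 9.39 with pellets (median 7.68). It was 6.50-fold lower with pellets (−2.70 ± 0.42, adjusted p = 0.00318), and its group means ran from 7.06 ± 0.65 in D to 7.86 ± 1.32 in F. The next, CUST_48499_PI428621111, was 11.85, 12.14, 12.44 and 11.84 in Group A and 5.92 to 11.5 with pellets (median 10.1). It was 4.93-fold lower (−2.30 ± 0.57, adjusted p = 0.0422). Its pellet groups were spread, from 7.50 ± 1.85 in D to 10.79 ± 0.18 in E.

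Probes that were DETs in each of the 5 pellet groups numbered 4 (0.00666% of probes), 3 higher and 1 lower. CUST_12880_PI428621111 was among them, and the others are named because the count is small, after their values were seen. The 5 comparisons share the 4 Group A arrays. Taken alone, Group D gave 1469 DETs (2.45%), B 255 (0.424%), C 90 (0.15%), F 19 (0.0316%) and E 13 (0.0216%). The count of probes called in all 5 groups was 13 without Group A replicate 2 (5 higher and 8 lower) and 12 without Group A replicate 4 (3 higher and 9 lower), so the larger share was then lower with pellets. It was 12 without Group E replicate 2 (10 higher and 2 lower).

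CUST_11494_PI428621111 was the lower of these, and the sole probe of the array that was well above background on all 4 Group A arrays and on 0 pellet arrays. Its signal was 6.48, 6.25, 6.69 and 6.75 in Group A and 2.84 to 3.90 with pellets (median 2.93), with no overlap and a gap of 2.35. By the approximate bound it was at least 2.90-fold lower with pellets. The adjusted p of 6.13e-11 (limma) belongs to the fitted difference of −3.49, which used the dim pellet values, and not to this bound. Group E had a mean of 3.60 ± 0.47 and the other pellet groups 2.90 to 3.04, and no pellet array was well above background.

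CUST_13037_PI428621111 had the opposite pattern. It was dim in Group A (2.83, 2.86, 2.82 and 2.90) and ran from 5.41 through 6.31 to 8.22 with pellets, well above background on 18 of 20 arrays, with the largest gap of all probes (2.51). It was at least 2.07-fold higher, an approximate bound for the mean of the 5 pellet groups. The adjusted p of its fitted difference of 3.57 was 3.93e-06 (limma). This difference and the calls in the single groups used the dim values. CUST_20643_PI428621111 was 3.34, 3.57, 3.62 and 4.33 in Group A, dim on all 4 arrays, and 4.57 to 7.22 with pellets (median 6.26), well above background on 17 of 20. It was at least 1.67-fold higher, an approximate bound under the 2-fold limit, so its DET calls rest on dim values. The adjusted p of its fitted difference of 2.43 was 0.000414 (limma). A total of 6 probes were well above background on all 20 pellet arrays and on 0 Group A arrays. The median share of spots well above background was also lower in Group A (23.4%, against 27.6% with pellets), although the ranges overlapped. Of the 4 Group A arrays, 2 lay on the dimmer slide 1.

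**Figure D3:**
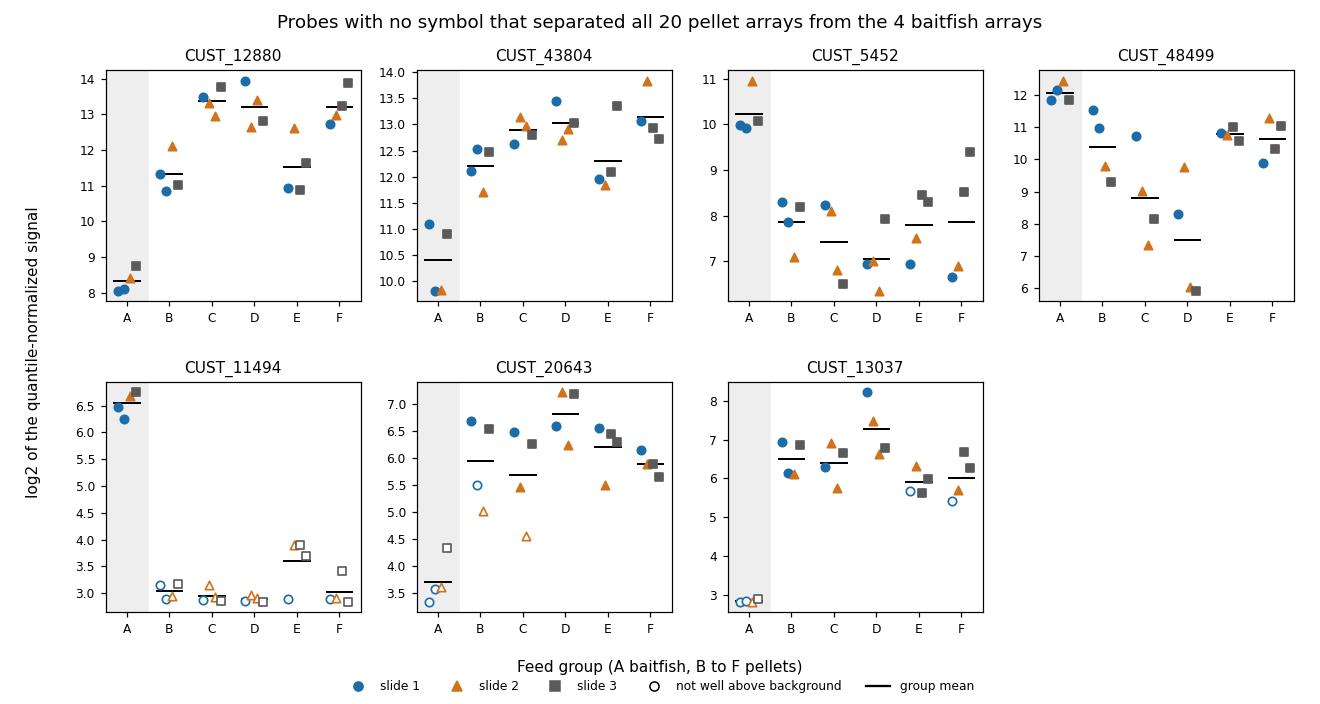
Log2 signal of 7 probes with no symbol in each array (y axis) by feed group (x axis, Group A shaded), drawn as above: the pairs that rose and fell most, then the other DETs of all 5 pellet groups. In every panel the 20 pellet arrays lie on 1 side of the 4 Group A arrays, and CUST_11494 is detected in Group A alone.

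The size of the difference from Group A was described for each pellet group over the 912 DETs of the pellet mean. Over the 649 DETs that rose, the median log2 difference from Group A was largest in Group D (2.06), then came B (1.502), E (1.38), C (1.37) and F (1.15). Over the 263 that fell it was −1.78 in Group D and −1.47, −1.40, −1.41 and −1.27 in B, E, C and F. These DETs were chosen by the mean of the same 5 groups, and only 277 were called without Group D. The medians, and the shares of the DETs below, are therefore a description and no test of a difference among the groups. In Group D all 4 arrays lay beyond all 4 Group A arrays for 749 of the 912 DETs (82.1%). The same held for 587 (64.4%) of them in Group B and 540 (59.2%) in Group C. Groups E and F gave 409 (44.8%) and 384 (42.1%). Over all probes the shares were 5.48% for Group D, 3.52% for E, 3.17% for B, 2.86% for F and 2.73% for C.

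The F-test among Groups B to F called 27 probes (0.0449%), of which 10 were among the 912 DETs, and 3398 had an unadjusted p below 0.05. It called 6 without Group D replicate 4, 15 or 16 without Group D replicate 1 or 2, Group E replicate 4 or Group F replicate 3 or 4. The mean of Groups E and F differed from that of B, C and D in 8 DETs (0.0133%; 7 higher and 1 lower in E and F), 5 of them among the 912, and 3152 had an unadjusted p below 0.05. That count was 1 without Group F replicate 2, and 4 or 5 without Group C replicate 2 or 4, Group D replicate 4, Group E replicate 2 or 4, or Group F replicate 3 or 4. A missed test does not show that the groups were alike. The lowest adjusted p of the 15 named genes in this comparison was 0.139 (limma, *serpina1*).

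Each feed group was also set against the mean of the other 5 in the same way. Group A gave the 912 DETs above, and Group D gave 264 (0.439%; 194 higher and 70 lower). Group B gave 1 (0.00166%), CUST_13221_PI428621111, and Group F gave 1 (0.00166%), CUST_15824_PI428621111, each higher in its group. Groups C and E gave 0 (0%) in limma, with 2251 and 2968 probes at an unadjusted p below 0.05. In this fit the baitfish-fed group thus had the most DETs of the 6 groups, followed by Group D. The ranking was not checked under the alternatives. The Group A count fell under several of them, for example to 296 with normexp, and the Group D count was not taken there.

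**Figure D4:**
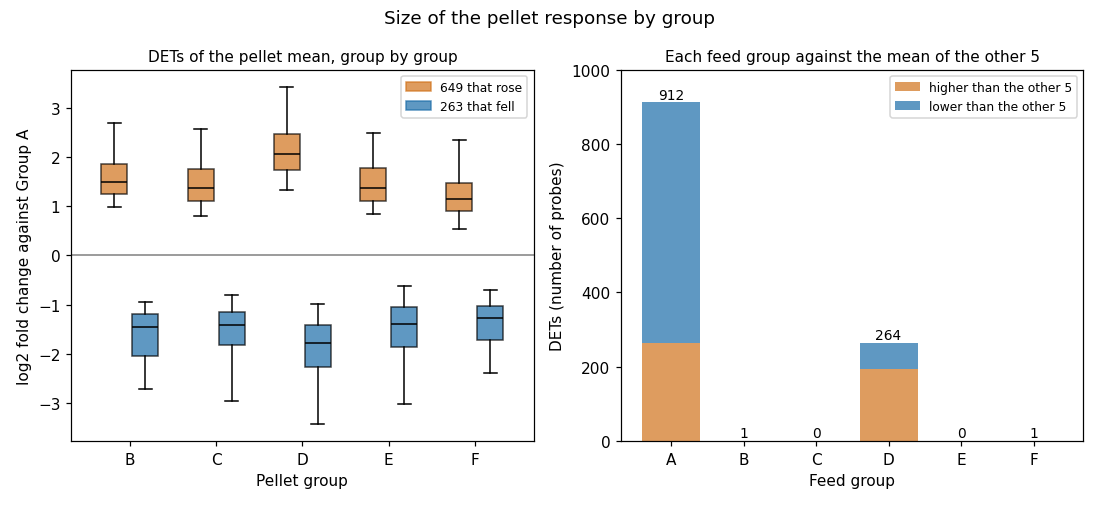
Left, log2 difference from Group A (y axis) of the 912 DETs in each pellet group (x axis); boxes are quartiles with the median, and whiskers run from the 5th to the 95th percentile. Right, number of DETs (y axis) of each feed group against the mean of the other 5: 912 for Group A, 264 for D, and 0 or 1 for B, C, E and F.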

How the data were processed

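Liver RNA of 24 samples was labelled with Cy3 and hybridised to custom one-colour arrays, taken as 1 fish per array. The authors extracted the scans with Feature Extraction 10.7.1.1, and the deposited files give 3 intensities per spot (after background subtraction, and the medians of the spot and of its surround) beside flags of other kinds (saturation, outlier, well above background). The deposited processed table holds log2 values that the authors quantile-normalized in Partek. It served only as an alternative. Its columns for 3 arrays of Group F matched the scanner files of each other, and 0 columns were unmatched.

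Control spots and outlier spots were left out and repeat spots averaged, leaving 60080 probes, of which 48 had a missing value on some array, so that their standard errors are approximate. A probe counted as detected (well above background) if over 50% of its spots carried that flag. Intensities were quantile-normalized over 24 arrays and log2-transformed with no filter. Linear models with feed group and slide (limma 3.58.1, R 4.3.3) were fitted to all arrays, with 6 groups sharing 1 spread. An SE or adjusted p therefore does not measure the spread of Group A alone. The contrast was the unweighted mean of Groups B to F minus Group A. P-values were Benjamini-Hochberg adjusted over all probes, and DETs passed 0.05 with a change of 2-fold or more. For a probe dim on every array of a side only a bound is given. Each array of that side was raised to the weakest detected signal on it if it lay below that level. A dim signal above that level entered as it stood, so the bound is approximate. The other side entered as it stood, with no slide term, and the bound holds only for this source of the signal. The adjusted p and DET call of such a probe come from the fitted difference, which used the dim values. Precision is limited by the number of arrays.

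Probes were named by symbol where the study's supplementary tables pair them (15 probes). Of the others, 2 DETs were named in each direction, those of largest change among DETs detected on all 24 arrays whose sides did not overlap. The members and lists were chosen with earlier results of these data known. Alternatives covered scaling, background correction (normexp, offset 50), the processed table, outlier spots, dim probes (at least 4 arrays), slide, replicate block, variance moderation, fold limits, the methods' t-test, and leaving out arrays, groups and slides. The fit was tested on simulated data. Further software was matplotlib 3.10.9 and the R package data.table (version 1.17.8).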

Additional observations from a re-analysis of the deposited data

Results flagged for a closer look

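Among the 132 sets of 4 arrays of 1 group (22 named probes in 6 groups), 16 had a highest or lowest array far from the other 3, where chance flags about 1 in 20 (6.6). For *fads2* these were Group B replicate 3 (9.35) and Group C replicate 2 (10.5), both high. For *elovl1b* they were Group D replicate 2 (9.82) and Group E replicate 1 (9.14), both high. *tm7sf2* was low in Group C replicate 1 (5.57), *p4hb* was low in Group F replicate 1 (10.3), and *ssr1* was high in Group D replicate 4 (12.1). *tnfsf14* was low in Group C replicate 3 and in Group E replicate 2 (5.80 in both). *acp5a* was high in Group A replicate 3 (5.48) and Group F replicate 2 (7.41), and *pip4k2aa* in Group B replicate 2 (7.16) and Group D replicate 2 (7.74). Of the probes with no symbol, CUST_43804_PI428621111 was high in Group E replicate 4 (13.4), CUST_5452_PI428621111 in Group A replicate 3 (10.96) and CUST_11494_PI428621111 in Group F replicate 3 (3.42). The 16 values came from 14 arrays, 7 of them on slide 2.

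The change of *aldh1l1* from Group A differed among the 5 pellet groups (F-test, adjusted p = 0.0169).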

How the results depend on the processing

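The 912 DETs of the pellet mean became 296 with normexp, 322 with the deposited processed table (310 with the slides of the nearest scanner files, an alternative chosen after seeing the data), 366 when tested against a 1.2-fold limit and 451 with the methods' t-test (6990 at its unadjusted threshold). They became 548 without Group B, 277 without Group D, 249 with slide 2 left out and 100 with slide 3 left out. A fit of only the 7963 probes well above background on all 24 arrays, also added after seeing the data, called 446 DETs with p-values adjusted over those probes alone, against 290 of the 912 that lay among them, and 83 probes separated the sides. Leaving out 1 array gave 424 to 1024 DETs, 162 to 411 probes with no overlap, 3 to 13 DETs of all 5 pellet groups, 6 to 34 probes that differ among pellet groups, and 1 to 11 DETs of Groups E and F against B, C and D. Removing slide means gave 292 probes with no overlap. DETs of all 5 groups were 2 with normexp. The F-test called 15 probes with scaling to the 75th percentile of bright probes, and the comparison of E and F gave 4 DETs without the slide term. The cause of these changes was not tested. The other scalings, filters, spot rules and variance settings gave counts within 1.5 times.

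No result of the 15 named genes changed sign except *p4hb* (0.19) and *ssr1* (0.19) within slide 3, neither of which had passed the test. Tests of the named genes were read out for 36 fits, the reported one included. They were not read out for several others. Among these were the fits with a slide left out, the test against a 1.2-fold limit and the methods' t-test. Variances not moderated and the replicate block with the slide were others. In the fits read out, *elovl5*, *tm7sf2*, *lbp*, *tlr8a* and *acp5a* always passed the test, with adjusted p up to 0.0450. Of the 7 genes that were DETs, 2 were with normexp, 4 with the deposited table, 6 without Group D and 5 without Group A replicate 3. Only *lbp* was a DET in all 36 fits read out for the genes.

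A fit with a replicate block in place of the slide gave 828 DETs and 5 DETs of all 5 groups, and the replicate block with the slide gave 636. It called 33 probes by the F-test, and changed the call of *serpina1* alone among the named genes (adjusted p = 0.0858). Same-numbered arrays share only a number: 33 of 60 such pairs had deviations that correlated above 0.1 (median 0.13), and 16 of 24 arrays were nearest to their own number. The median was 0.15 for same-numbered arrays on the same slide, −0.12 for those on different slides and 0.11 for differently numbered arrays on the same slide.

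Signal over background limits the dim probes: 25156 probes were not well above background on any array, 29 DETs that fell and 2 that rose were dim on all 24, and 57 that fell were dim on all pellet arrays.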
